A study of Mus musculus with 18 samples.

Results

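The genes described here encode ligands of the epidermal growth factor (EGF) family, the ErbB receptors that bind them and a feedback inhibitor of those receptors. They were taken from the deposited table by gene identifier and comprised 10 of its 55487 genes, namely the 6 ligands Egf, Tgfa, Areg, Ereg, Btc and Hbegf, the 3 receptors Egfr, Erbb2 and Erbb3, and the inhibitor Errfi1. RNA was sequenced from organoids, 3-dimensional cultures grown from small intestinal crypts of female wild-type C57BL/6 mice. The study's purchased female C57BL/6N mice were young adults, and the description of the organoids does not restate an age for their donors. Cultures received norepinephrine at 1 μM (5 samples), an agonist of both α- and β-adrenergic receptors, its HCl vehicle (4 samples), UK14304 at 1 μM (5 samples), a selective agonist of α2-adrenergic receptors, or its DMSO vehicle (4 samples). All cultures were wild type, stayed in complete growth medium and were treated for 4 days, so a transcript that moved and returned within that time would not be seen. Sample names carry a number from m1 to m5, read here as the mouse of origin, and m5 has no vehicle sample.

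EGF family ligands are made as membrane proteins and are released by proteases such as ADAM17. They bind EGFR (Egf, Tgfa, Areg) or both EGFR and ErbB4 (Ereg, Btc, Hbegf), and the bound receptors pair with each other and switch on the RAS, RAF, MEK and ERK kinase cascade. ErbB2 binds no ligand and works as a partner, while ErbB3 binds neuregulins and has little kinase activity of its own. Errfi1 (also called Mig6) is induced by this signalling and blocks the kinase domain of EGFR. In the intestine the pathway is known for driving the division of crypt cells, for which reason EGF is a usual supplement of organoid medium, and for repair after injury.

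Total counts per sample lay between 21866149 and 27850373. The cultures carried the markers of their labelled tissue, with a summed level of 6 epithelial genes of 5648 to 6241 CPM (counts scaled to library size) in every sample. The 6 markers of fibroblasts together reached at most 0.346 CPM, 6 of immune cells at most 4.58 CPM, 3 of endothelium at most 0.991 CPM and 4 of neurons and glia at most 3.10 CPM. Paneth cell genes are given beside the result on Areg. In a bulk sample, fewer cells of a type and less RNA per cell cannot be told apart. Both agonist libraries of mouse 4 stood apart. Across genes, the deviation of each library from its group mean had a Pearson correlation with GC content of 0.546 in the norepinephrine library and -0.425 in the UK14304 library of mouse 4, against -0.298 to 0.321 in the other 16, and these 2 libraries correlated with each other at -0.212. A ribosomal RNA gene took 1.83 to 3.06% of counts in 7 libraries and 0.313 to 0.619% in the other 11. The 7 were 3 of 4 DMSO, 1 of 5 UK14304, 1 of 4 HCl and 2 of 5 norepinephrine libraries. This split was thus uneven between UK14304 and its vehicle. Results are therefore also given without the norepinephrine library of mouse 4 where it decides a call, a choice made after the data were seen.

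All 10 genes passed the filter on low counts. Levels between genes are compared as RPKM, reads per kilobase of merged exon, scaled to library size as for CPM, over the 18 samples with their SD. The receptors Erbb3 and Erbb2 were the most abundant, at 83.6 ± 2.65 and 39.6 ± 3.66 RPKM, and Erbb3 lay above 96.9% of the 15247 genes tested. Egfr, the receptor that binds the ligands directly, was far lower at 5.37 ± 0.236 RPKM, above 52.4% of genes. The inhibitor Errfi1 stood at 26.5 ± 2.83 RPKM, above Egfr in every sample.

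Among the ligands, Areg was the most abundant at 15.6 ± 3.43 RPKM, followed by Tgfa at 6.82 ± 0.441, Btc at 3.74 ± 0.513 and Hbegf at 2.34 ± 0.401 RPKM. Ereg and Egf themselves were near the floor of the measurement. Ereg was at 0.236 ± 0.121 RPKM from 6 to 60 counts a library, and Egf at 0.146 ± 0.0259 RPKM from 27 to 57 counts. The order of each gene above the next held in 18 of 18 samples with the exception of Ereg above Egf, which held in 15 of 18. The ranges over samples nevertheless overlapped for Errfi1 and Areg, for Btc and Hbegf, and for Ereg and Egf. The order also rests on the merged exon length, which is the same in every sample. By counts, Tgfa (977 to 1262 a library) lay above Areg (315 to 724). Areg, Ereg and Btc lie near each other on chromosome 5 (GRCm38), Ereg at chr5:91074622-91093646, Areg at chr5:91139599-91148432 and Btc at chr5:91357261-91402994, yet their mean levels spanned the range from 0.236 to 15.6 RPKM. The receptors lie apart, Egfr at chr11:16752203-16918158, Erbb2 at chr11:98412470-98437716 and Erbb3 at chr10:128567523-128589652, and Errfi1 is at chr4:150853919-150868892, Tgfa at chr6:86195223-86275719 and Egf at chr3:129677565-129755316.

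**Figure D1:**
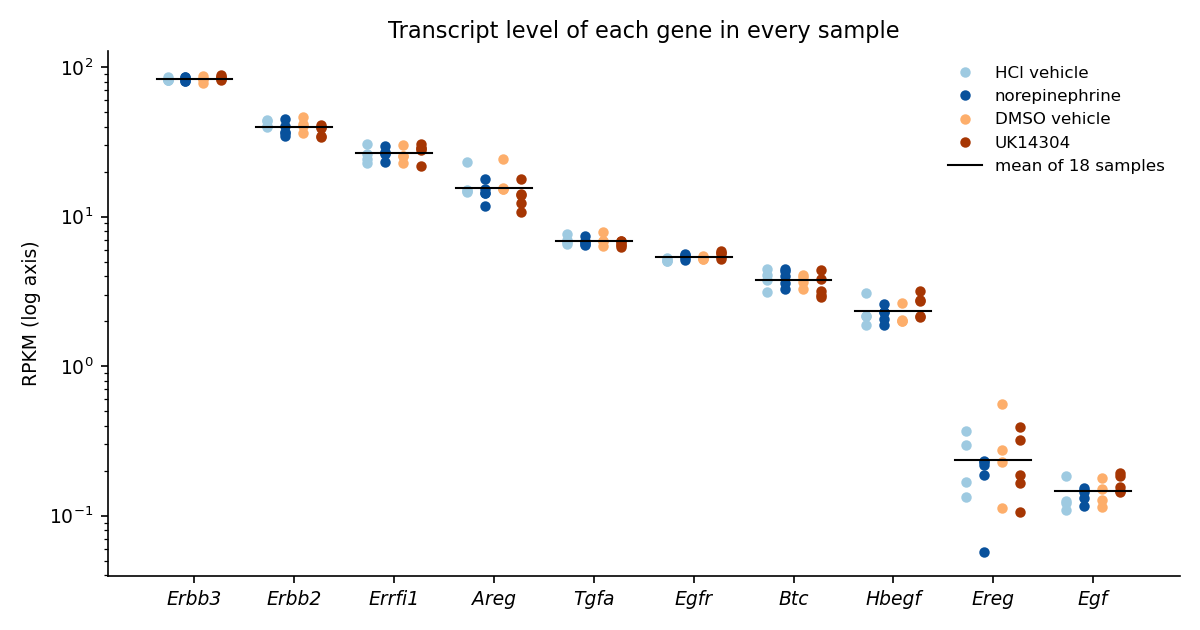
RPKM (log axis) of each gene in every sample, 1 point per sample coloured by group, with a line at the mean of the 18 samples. The genes fall in steps from Erbb3 at a mean of 83.6 RPKM to Egf at 0.146 RPKM, and within each gene the 4 groups overlap.

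Reads were counted without regard to strand. Exons of antisense genes share 9 bases with Erbb2, 118 bases with Tgfa and 141 bases with Ereg, and 2 antisense genes share 607 and 500 bases with Egf, so reads there could have been lost from these genes. The other members shared no exon base with another gene of the table.

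Of the remaining ligands and receptors of the family, Epgn, Nrg1, Nrg2, Nrg3, Nrg4 and Erbb4, the filter left only Nrg4. Nrg4, a neuregulin that binds ErbB4, had 99 to 206 counts per library and group means of 1.09 to 1.30 RPKM, between those of Hbegf and Ereg. Erbb4, the receptor shared by Ereg, Btc and Hbegf, had 0 to 8 counts per library. The neuregulins Nrg1 and Nrg2, which bind ErbB3, had at most 5 and 3 counts, Nrg3 had 0 in 18 of 18 libraries, and the ligand Epgn had 1 to 6.

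The members also differed in how steady they were over samples. The coefficient of variation of the CPM over the 18 samples was 3.16% for Erbb3, 4.39% for Egfr and 6.46% for Tgfa. It was 9.23% for Erbb2, 10.7% for Errfi1, 13.7% for Btc, 17.1% for Hbegf and 22% for Areg. Counting error adds more to Egf (17.7%) and Ereg (51.3%), whose counts are small. The receptors Erbb3 and Egfr thus varied least, and among the 8 genes without Egf and Ereg the ligand Areg varied most.

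The first comparison asks what a general adrenergic agonist does to these transcripts. Norepinephrine moved none of the 10 genes past the threshold against HCl vehicle. With edgeR's quasi-likelihood test and Benjamini-Hochberg adjustment over all genes, 0 of 10 passed an adjusted p of 0.05, where the background over all genes was 0%. At an unadjusted p under 0.05 the count was 0 of 10, against 6.18% of all genes, and DESeq2 also called 0. With the mouse number as a block 0 of 10 were called, against 0.105% of all genes, and 1 of 10 (Areg) had an unadjusted p under 0.05, against 8.4% of all genes.

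The receptor with the largest difference from HCl vehicle was Erbb2. Its CPM in mice 1 to 4 was 210, 229, 208 and 228 with HCl and 192, 211, 181 and 233 with norepinephrine, and 188 in mouse 5. It was lower in mice 1, 2 and 3 and higher in mouse 4, whose norepinephrine library stood apart, and the groups overlapped. The log2 fold change was -0.12 ± 0.08 (SE), with an adjusted p of 0.720. With the mouse block and all libraries it was -0.12 ± 0.06 (adjusted p from edgeR 0.592). Without the norepinephrine library of mouse 4 and with the block, it was -0.18 ± 0.04 at an adjusted p of 0.00774. Of the 18 blocked fits that each left out 1 library, only that 1 called Erbb2.

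Egfr moved the other way by less. It was at 57.5, 58.1, 59.9 and 57.4 CPM with HCl and at 60.0, 62.0, 63.1, 58.3 and 63.4 CPM with norepinephrine in mice 1 to 5. The norepinephrine sample was the higher one in 4 of 4 mice, which 5.32% of all genes shared, but the difference of 0.08 ± 0.04 on the log2 scale did not pass (adjusted p from edgeR 0.713). Erbb3, with the narrowest interval of the 10, differed by -0.01 (95% interval -0.09 to 0.07).

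Among the ligands, Areg had 18.4, 28.2, 17.7 and 18.0 CPM with HCl in mice 1 to 4 and 18.5, 21.7, 14.3, 17.4 and 17.6 CPM with norepinephrine in mice 1 to 5. It was lower in mice 2, 3 and 4 and level in mouse 1. At -0.20 ± 0.18 on the log2 scale, the difference did not pass (edgeR's adjusted p 0.761). With the mouse block and all libraries it was -0.19 ± 0.07 at an adjusted p of 0.556. Only 1 of the 18 blocked fits that each left out 1 library called Areg. It was the fit without the norepinephrine library of mouse 4, at -0.22 ± 0.07 and an adjusted p of 0.0392. In that fit 2 of the 10 genes, Areg and Erbb2, were called, both lower, beside 16.7% of all genes called and 7.55% called lower. A count of 2 of 10 is near the 16.7% called in either direction and above the 7.55% called lower. Whether it sets these genes apart was not tested. The other members differed from HCl by between -0.39 (Ereg) and 0.04 (Egf) on the log2 scale, with adjusted p from 0.817 to 0.964, where Ereg's 95% interval reached from -1.38 to 0.61. Tgfa was lower in 4 of 4 mice, as were 8.28% of all genes, at -0.04 ± 0.06.

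The second comparison asks the same of the α2-selective agonist. UK14304 gave 1 member called, Areg, and only when each mouse was compared with itself. Without the block 0 of 10 genes passed with edgeR, against 0.0394% of all genes, 0 of 10 had an unadjusted p under 0.05, against 11.2% of all genes, and DESeq2 called 0. With the block 1 of 10 passed, against 1.22% of all genes, 1.04% in the lower direction, and 2 of 10, Areg and Hbegf, had an unadjusted p under 0.05, against 14.8% of all genes.

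Areg encodes amphiregulin, a ligand of EGFR of low affinity that is released by ADAM17. Its CPM in mice 1 to 4 was 18.6, 29.3, 18.6 and 19.0 with DMSO, and in mice 1 to 5 it was 16.9, 21.7, 13.0, 15.0 and 17.2 with UK14304. Mouse 2 was highest in both groups, so the groups overlapped, while each of the 4 mice had less Areg with UK14304, by 9.19%, 26.1%, 30.0% and 20.9%. The log2 fold change was -0.35 ± 0.18 without the block (adjusted p from edgeR 0.464) and -0.35 ± 0.07 with it (adjusted p 0.0143), a fold of 0.786. Of all genes, 15.5% were lower in 4 of 4 mice.

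With the block the call held in 14 of 18 fits that each left out 1 library, and the log2 fold change stayed between -0.39 and -0.31. The call was lost without DMSO mouse 2 (adjusted p 0.128), DMSO mouse 3 (0.0879), UK14304 mouse 2 (0.0740) or UK14304 mouse 3 (0.0891), and without all libraries of mouse 2 the log2 fold change was -0.30 at an adjusted p of 0.247. With the split by ribosomal RNA as a covariate beside the block, it was -0.32 at an adjusted p of 0.101. Of 5 Paneth cell markers, 0 were called for either agonist without the block. With the block 3 were called lower with UK14304, against 1.22% of all genes in either direction and 1.04% lower. With norepinephrine 2 were called lower, against 0.105% in either direction. Their summed level was 2227 to 3443 CPM with DMSO, 1941 to 2890 with UK14304, 2334 to 3574 with HCl and 1906 to 2666 with norepinephrine. Of 4 goblet cell markers, 1 was called lower with UK14304 with the block, against 1.04% of all genes, and 0 without it. Of the markers of stem cells, enterocytes, enteroendocrine and tuft cells, 0 were called for either agonist in either fit. The part of any of these cell types in the level of Areg was not tested.

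Hbegf, which encodes heparin-binding EGF-like growth factor, ran in the opposite direction with UK14304. Its CPM was 9.71, 12.8, 9.80 and 9.61 with DMSO in mice 1 to 4 and 13.4, 15.4, 10.3, 10.5 and 13.1 with UK14304 in mice 1 to 5. It was higher in 4 of 4 mice, by 37.9%, 20.1%, 5.00% and 8.91%, as were 14% of all genes. The groups overlapped, and the difference, 0.26 ± 0.14 on the log2 scale, did not pass (edgeR's adjusted p 0.491 without the block and 0.154 with it). Without the norepinephrine library of mouse 4, which enters this contrast only through the filter, the shared spread and the mouse term, it was 0.24 ± 0.07 with the block and passed at 0.0427. Areg and Hbegf were the 2 members called in that fit, beside 8.08% of all genes. Hbegf was called in only that 1 of the 18 blocked fits that each left out 1 library.

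**Figure D2:**
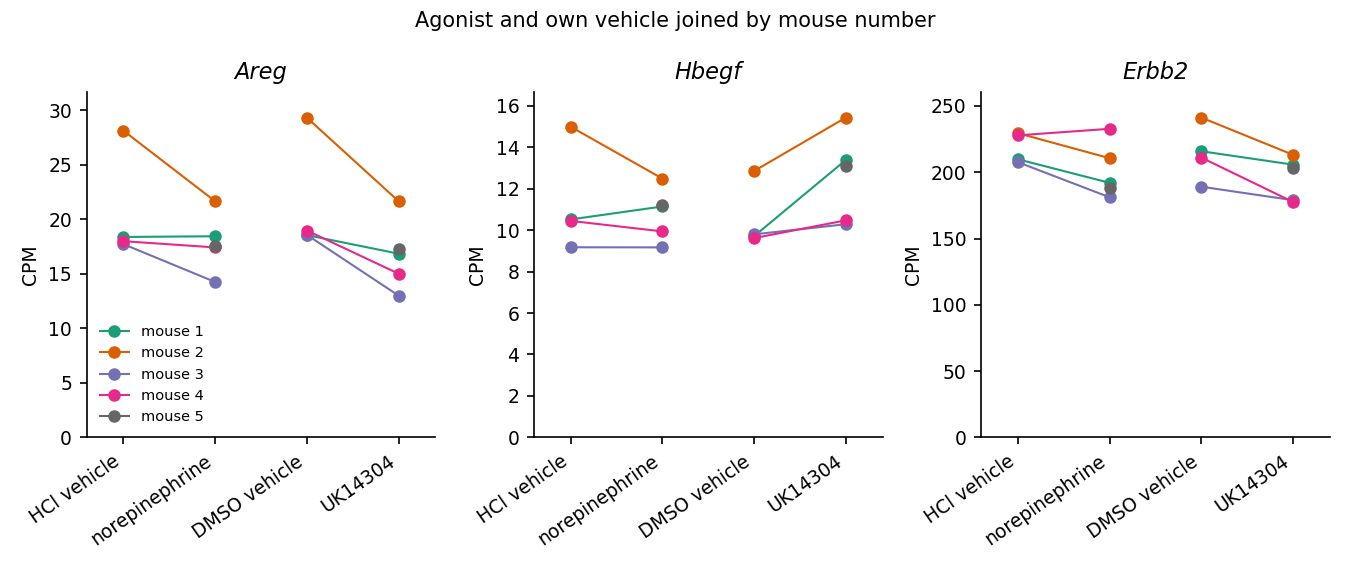
CPM of Areg, Hbegf and Erbb2 (axes from 0), with the agonist and its own vehicle of the same mouse number joined by a line and mouse 5, which has no vehicle, as a single point. Areg falls in all 4 mice from DMSO to UK14304, by 9.19 to 30.0%. Mouse 2 lies above the others in every group for Areg and Hbegf, and in 3 of 4 groups for Erbb2.

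The receptors showed no call with UK14304. Erbb2 was at 216, 241, 189 and 211 CPM with DMSO in mice 1 to 4 and at 206, 213, 179, 178 and 203 CPM with UK14304 in mice 1 to 5. It was lower in 4 of 4 mice, by 4.69 to 15.9%, and the difference of -0.13 ± 0.08 on the log2 scale did not pass (edgeR's adjusted p 0.509). Egfr was higher in 3 of 4 mice at 0.07 ± 0.04 (adjusted p 0.490), and Erbb3 differed by 0.04 with a 95% interval of -0.04 to 0.12.

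The inhibitor Errfi1 differed by 0.09 ± 0.10 on the log2 scale (adjusted p from edgeR 0.740), with CPM of 91.2, 108, 81.4 and 90.5 with DMSO and 100, 109, 77.9, 102.5 and 104 with UK14304. It was higher in mice 1, 2 and 4 and lower in mouse 3. Tgfa was at -0.08 ± 0.06, Btc at -0.11 ± 0.12, Egf at 0.21 ± 0.17 and Ereg at -0.33 ± 0.44, none of them past the threshold. For neither agonist did the CPM of agonist and vehicle separate without overlap in any of the 10 genes, against 1.42% of all genes with norepinephrine and 3.51% with UK14304.

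**Figure D3:**
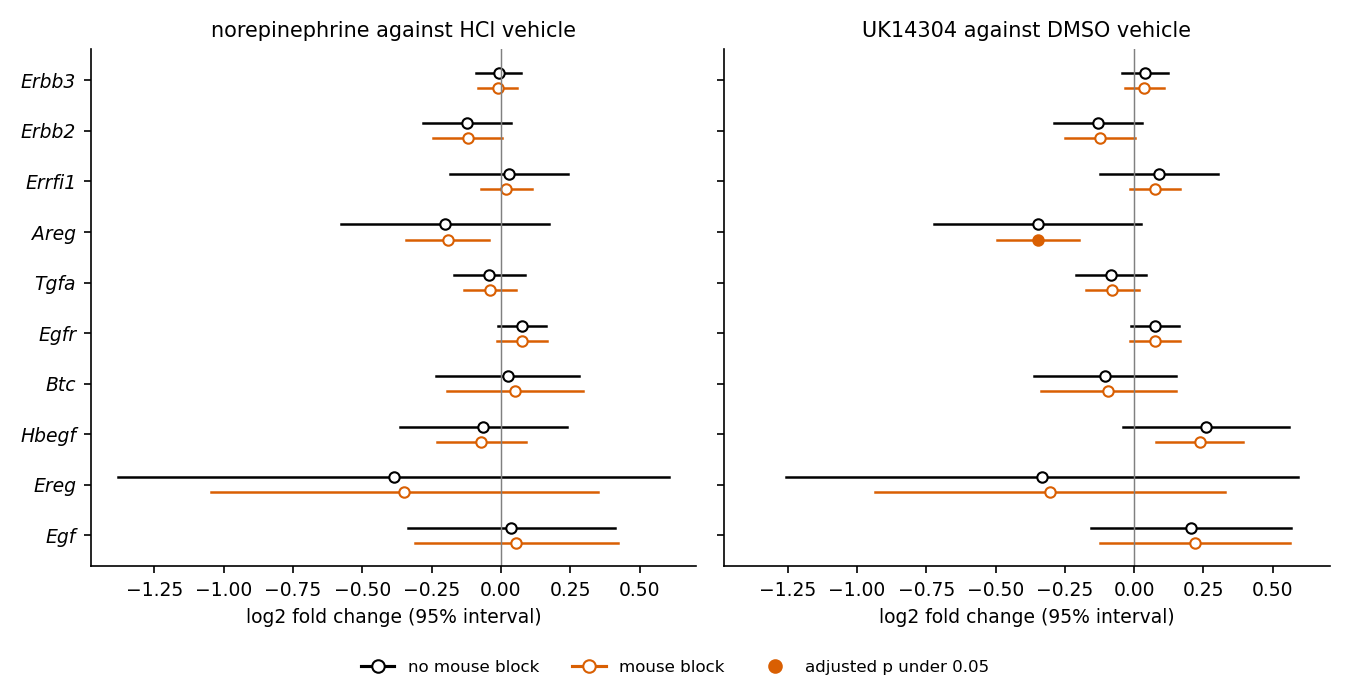
Log2 fold change of each gene against its own vehicle with its 95% interval, for norepinephrine (left) and UK14304 (right), from the edgeR fit without (black) and with (orange) the mouse number as a block. A filled point marks an adjusted p under 0.05, which Areg with UK14304 reached at -0.35 with the block, and the widest intervals are those of Ereg, which had the fewest counts.

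The agonists were compared with each other at the same dose and time through the difference of their effects, each against its own vehicle. In 0 of 10 genes did this difference pass, with or without the block, against a background of 0%. At an unadjusted p under 0.05 the count was 0 of 10 without the block and 1 of 10 with it, against 1.51% and 2.66% of all genes, and DESeq2 called 0. The 1 gene was Hbegf, whose effect with UK14304 exceeded that with norepinephrine by 0.32 (95% interval -0.10 to 0.75) without the block and by 0.31 (0.09 to 0.52) with it. For Areg the difference was -0.15 (95% interval -0.68 to 0.39) without the block and -0.16 (-0.36 to 0.05) with it, so these data show neither that the agonists differ in their effect on Areg nor that they act alike. The vehicles were also compared. With edgeR, HCl and DMSO gave 0 of 10 genes called (background 0%), 0 of 10 at an unadjusted p under 0.05 (background 1.27%) and 0 with DESeq2, with log2 differences from -0.29 for Ereg to 0.10 for Hbegf.

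More members, and more of all genes, were called between the mouse numbers than with either agonist in the blocked fit. These counts do not compare the size of the differences. In a test chosen after these data were seen, the mouse number in the blocked fit was tested across all genes, and 5 of 10 members passed, namely Areg (adjusted p 1.67e-05), Errfi1 (3.48e-05), Hbegf (0.000394), Ereg (0.0203) and Tgfa (0.0366), against 13.8% of all genes. The receptors did not pass, with adjusted p of 0.0942 for Erbb2, 0.454 for Erbb3 and 0.838 for Egfr, nor did Btc (0.528) and Egf (0.548). Whether a mouse number stands for the animal or for the handling of its cultures cannot be told apart.

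Mouse 2 was the highest in all 4 groups for Areg, Errfi1 and Hbegf, a pattern of 4.27% of all genes. Over its 4 samples, Areg averaged 25.2 CPM, against 17.1 CPM in mice 1, 3 and 4. Errfi1 averaged 108 against 89.9 CPM and Hbegf 13.9 against 10.3 CPM. Mouse 3 was the lowest on average for the same 3 genes, with mean deviations from the group means of -0.25 for Areg, -0.22 for Errfi1 and -0.21 for Hbegf on the log2 CPM scale.

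Ereg had another pattern, with mouse 3 highest on average (0.68 above the group means on the log2 CPM scale) and mice 1 and 4 lowest (-0.55 and -0.54). Its call was lost without the HCl (adjusted p 0.0593), DMSO (0.109) or UK14304 (0.0723) library of mouse 3. The call of Tgfa held in only 5 of the 18 fits that left out 1 library, and its adjusted p reached 0.242 without the DMSO library of mouse 2. Without the norepinephrine library of mouse 4, Erbb2 was called too (adjusted p 0.00252), which made 6 of 10, against 23.6% of all genes, and Erbb2 was also called without the UK14304 library of mouse 4 (0.00338). When all libraries of mouse 2 were left out, 808 of all genes were called between mouse numbers. Of the members only Errfi1 still passed (adjusted p 0.0269), and Areg (0.397), Hbegf (0.305), Ereg (0.0740) and Tgfa (0.914) did not.

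**Figure D4:**
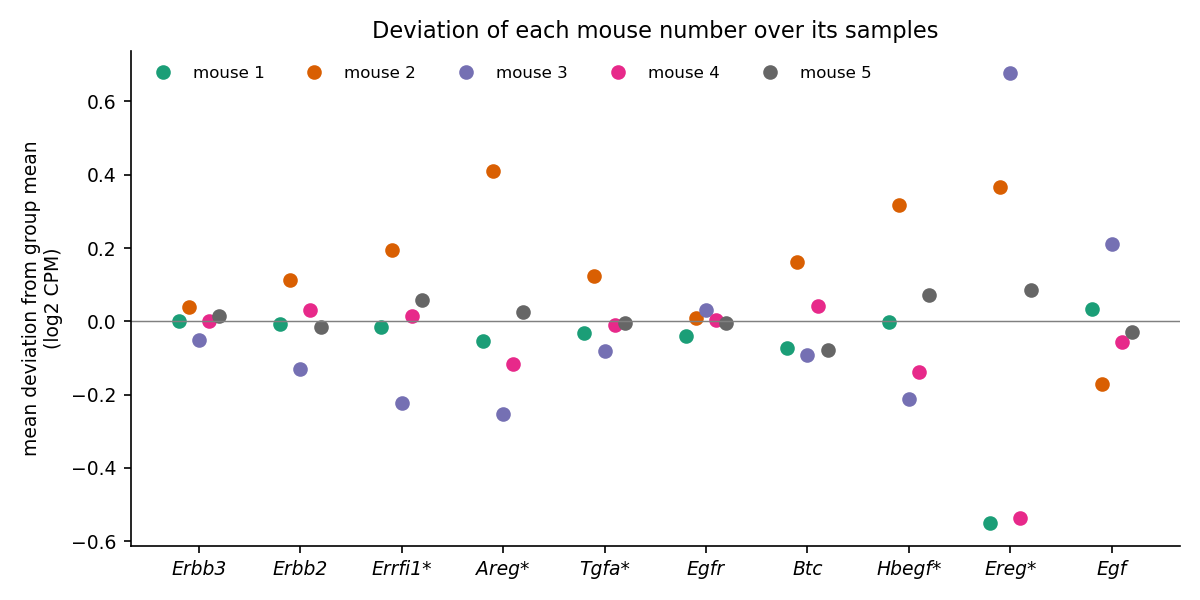
Mean deviation from the group mean, in log2 CPM, of each mouse number over its samples (4 samples each for mice 1 to 4, 2 for mouse 5), with an asterisk at genes that differed between mouse numbers at an adjusted p under 0.05. Mouse 2 lies highest and mouse 3 lowest for Areg, Errfi1 and Hbegf, whereas the points of Erbb3 and Egfr stay close to 0.

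The promoters of Areg and Errfi1, the members with the smallest p between mouse numbers, are shown because the 2 genes moved together over the mice and share an arrangement of motifs, a choice made after these values were seen. The shares of windows below therefore do not test whether this sharing is unusual. With UK14304 the log2 fold changes without the block had opposite signs, -0.35 ± 0.18 for Areg and 0.09 ± 0.10 for Errfi1. The sequences are the 100 bases before an annotated start in RefSeq (GRCm38.p6, plus strand), 5′ to 3′, with the palindrome TGACGTCA and the TATA motif TATAAA in capitals. They lie at chr5:91139499-91139598 and at chr4:150854970-150855069, the latter before the downstream of 2 starts listed for Errfi1.
Areg: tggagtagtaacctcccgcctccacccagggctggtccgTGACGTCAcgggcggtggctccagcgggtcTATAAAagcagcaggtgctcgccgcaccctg
Errfi1: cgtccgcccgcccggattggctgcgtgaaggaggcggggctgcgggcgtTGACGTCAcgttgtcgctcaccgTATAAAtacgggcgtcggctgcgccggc
TGACGTCA is the full cAMP response element, a known binding sequence of CREB, the factor activated through cAMP. The element begins 61 bases before the start of Areg and 51 bases before that of Errfi1, and TATAAA begins 31 and 28 bases before it. Searched on both strands over windows from 250 bases before to 50 after a start, TGACGTCA was found in 1.79% of 32851 windows, TATAAA in 13.6% and both in 0.17%. Windows were used for 7 of the members (9 windows), and neither motif was in the letters of those of Egf, Tgfa, Btc, Egfr and Erbb2, nor in the upstream window of Errfi1. No window was used for Ereg, Erbb3 or Hbegf. Hbegf, which was also highest in mouse 2 and lowest in mouse 3, was therefore not searched. No binding was measured here, and the motifs are a description of these letters.

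The genes whose profile was most like that of the most abundant members were found by the Pearson correlation of log2 CPM over the 18 samples, which share library depth, GC trend and mouse number. For Erbb3 they were Itgb5 (0.894), Slc25a28 (0.876) and Atg2a (0.868), and for Erbb2 Mroh1 (0.969), Actn4 (0.967) and Fam234a (0.965). For Errfi1 they were Fras1 (0.943), Lipa (0.940) and Muc13 (0.935), and for Areg Itprid2 (0.958), Cldn4 (0.948) and Klf4 (0.944). Hbegf, chosen after its values were seen, was most like Fos (0.925), Smcr8 (0.862) and Egr1 (0.851), of which Fos and Egr1 are immediate-early genes that ERK signalling induces.

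Around the members, 54 further genes of the pathway in 5 lists were followed, of which 48 passed the filter. Without the block 0 of 48 were called for either agonist (background 0% and 0.0394%). At an unadjusted p under 0.05 the counts were 1 of 48 with norepinephrine, against 6.18% of all genes, and 11 of 48 with UK14304, against 11.2%. DESeq2 without the block called 0 of 48 for either agonist. The median log2 fold change over the 48 was -0.03 with norepinephrine and 0.0032 with UK14304, beside -0.01 and -0.0041 over all genes.

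With the block, 0 of 48 passed with norepinephrine, against 0.105% of all genes, and 2 of 48 with UK14304, against 1.22%, both in the list of genes that ERK induces and in opposite directions. Egr1, an immediate-early transcription factor, was at 17.6, 23.8, 17.4 and 16.7 CPM with DMSO in mice 1 to 4 and at 24.6, 27.6, 20.5, 22.9 and 23.9 CPM with UK14304 in mice 1 to 5. It was higher in 4 of 4 mice, at 0.34 ± 0.10 without the block (adjusted p from edgeR 0.323) and 0.34 ± 0.06 with it (0.00658). Ier3, an immediate-early gene linked to cell survival, was at 8.39, 13.3, 9.06 and 9.86 CPM with DMSO and at 8.04, 8.11, 5.25, 6.71 and 8.30 CPM with UK14304. All 5 of its UK14304 values lay below the 4 DMSO values, with a difference of -0.48 ± 0.16 on the log2 scale without the block (adjusted p 0.368) and -0.52 ± 0.09 with it (0.00671). Both were, with Fos and Ccnd1, among the 4 of 9 tested ERK-induced genes that differed between mouse numbers (background 13.8%; 8 of 48 over all the lists), with adjusted p of 0.00275 for Egr1 and 0.00229 for Ier3. These genes did not share a direction. Egr1, Fos and Ier3 were highest on average in mouse 2 and lowest in mouse 3, and Ccnd1 was the reverse.

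The call of Ier3 was lost without the DMSO library of mouse 2 (adjusted p 0.0621) and with the split by ribosomal RNA beside the block (0.0547), and without all libraries of mouse 2 both Ier3 (0.191) and Egr1 (0.0509) were lost. Without the norepinephrine library of mouse 4 and with the block, 14 of 48 genes were called with norepinephrine, against 16.7% of all genes, and 9 of 48 with UK14304, against 8.08%. With all libraries, no gene of the remaining lists was called in either fit, and the gene with the smallest p of each without the block is given here. With the block that gene changed only with norepinephrine, to Cbl for receptor turnover and feedback and to Ier3 for the ERK-induced genes. For ligand release these were Rhbdf2, a partner of ADAM17, with norepinephrine (-0.15 ± 0.08, adjusted p from edgeR 0.713) and Adam17 itself with UK14304 (0.09 ± 0.04, 0.444). For receptor turnover and feedback it was the ERK phosphatase Dusp4 with either agonist (-0.13 ± 0.07, 0.713, and -0.19 ± 0.07, 0.374). For adaptors and the kinase cascade they were Mapk3, which encodes ERK1, with norepinephrine (-0.16 ± 0.06, 0.713) and the adaptor Gab1 with UK14304 (0.13 ± 0.04, 0.329). The lone neuregulin Nrg4 was at 0.26 ± 0.13 with norepinephrine (0.713) and 0.05 ± 0.13 with UK14304 (0.900), and the smallest p of the ERK-induced genes with norepinephrine was that of Ier2 (-0.11 ± 0.06, 0.713).

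**Figure D5:**
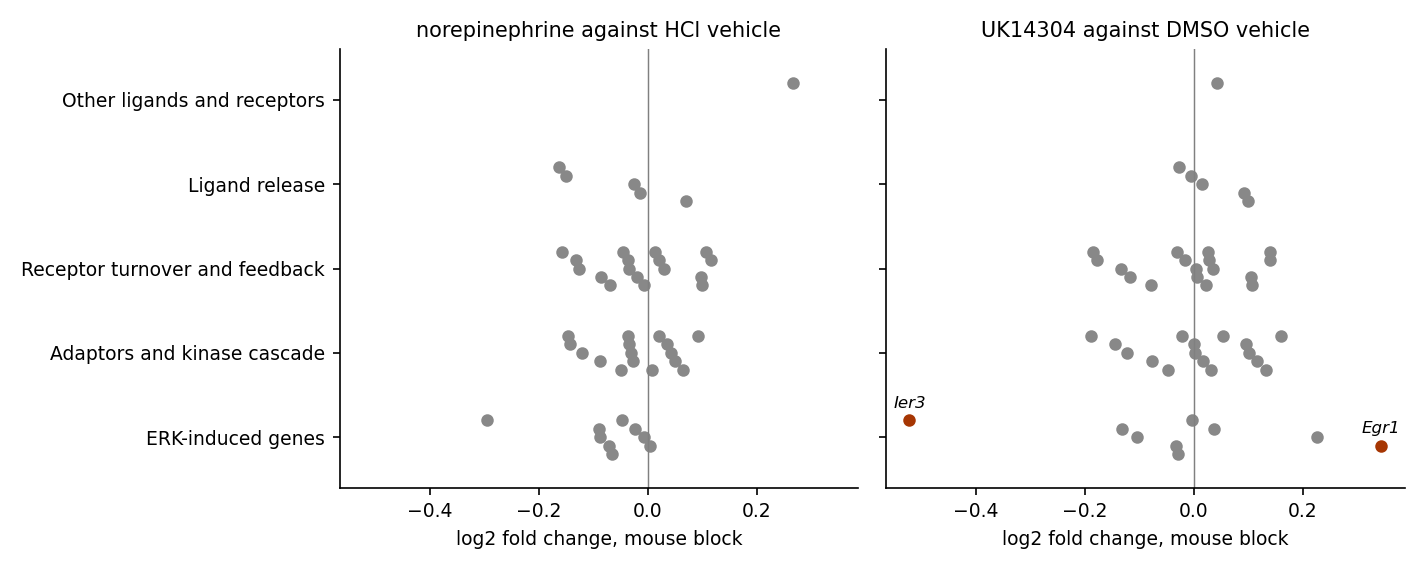
Log2 fold change with the mouse block of the 48 tested genes of the 5 pathway lists, 1 point per gene and 1 line of points per list, for norepinephrine (left) and UK14304 (right). The called genes are coloured and named, Ier3 at -0.52 and Egr1 at 0.34 with UK14304, and the other points lie between them on both sides of 0.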

How the data were processed

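RNA-seq counts of 18 mouse organoid samples were used, and samples were grouped by the treatment in the labels. The authors mapped single reads with STAR 2.7.3 to GRCm38 and deposited raw counts per gene over merged exons, without normalization, from featureCounts, which skipped reads with several places or genes and did not use strand. The methods name Subread 1.6.4, and the file header featureCounts 2.0.1 with Ensembl release 102. All per-sample columns were used. The merged exon length in the table served for RPKM.

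Symbols were found for 55141 of 55487 identifiers. The main test was that of edgeR 4.0.16 under R 4.3.3 (TMM scaling, genes kept by filterByExpr on the groups, a robust quasi-likelihood fit over the 4 groups, Benjamini-Hochberg adjustment over 15247 genes, called at an adjusted p under 0.05), and DESeq2 1.42.0 was an alternative. Log2 CPM used a prior count of 2. CPM and RPKM use the TMM-scaled library size. The fits were also run on simulated counts with the same dispersion for every gene. These had no GC trend, ribosomal RNA split or outlying library, so they do not test the fits for those features. Precision is limited by 4 or 5 samples a group and, for Ereg and Egf, by counts.

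The mouse number was checked as a block. Deviations from the group means correlated at 0.119 to 0.520 in the 8 pairs of an agonist and its own vehicle with the same number. Over 96 pairs of different numbers the correlation ran from -0.43 to 0.25, with a mean of -0.07 and 6 above 0.1. The pairing comes from the labels. It was clear for mice 2 and 3 (0.420 to 0.520), while the pairs of mice 1 and 4 (0.119 to 0.231) lay within the range of different numbers. Members and pathway lists were chosen with earlier results of these data known. The text names all members, pathway genes called in either fit and the smallest p of each list per agonist, without the block unless stated. It also names the 3 genes most like each of the 4 most abundant members. Nothing in the labels says that numbers mark separate cultures beyond the mouse, so p-values measure the spread between these samples.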

Additional observations from a re-analysis of the deposited data

Results flagged for a closer look

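The CPM of the 10 members was checked in each of the 4 groups, 40 sets in all, for a sample far from the others of its group by Dixon's test, which flags about 1 set in 20 by chance, and 6 were found. The 40 sets come from the same 18 libraries, and the share flagged over all genes was not computed. The count is therefore not read as particular to these genes. Of the 6, 4 were the vehicle samples of mouse 2, each above the other 3 of its group. They were Areg with HCl at 28.2 CPM (others 17.7 to 18.4) and with DMSO at 29.3 CPM (others 18.6 to 19.0), Hbegf with DMSO at 12.8 CPM (others 9.61 to 9.80) and Erbb3 with HCl at 519 CPM (others 495 to 496). Errfi1 was low in the UK14304 sample of mouse 3, at 77.9 CPM (others 100 to 109). Ereg was low in the norepinephrine sample of mouse 4, at 0.237 CPM from 6 counts (others 0.774 to 0.964), in the library whose deviations followed GC content most closely.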

How the results depend on the processing

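Precision was limited by counts for Ereg and Egf and otherwise by 4 mice with vehicles and libraries that differ in GC trend and ribosomal RNA. The members' differences from vehicle kept their direction in 232 of 238 values and gained a call in 7, and the differences between agonists kept it in 91 of 99. The causes of the changes below were not tested.

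Genes called with norepinephrine (0 without the mouse block) were 16 with the block, 15 with the block on the agonist and its own vehicle alone, 31 with the GC trend removed beside the block, 16 with the ribosomal RNA split, 29 with DESeq2 and the block, 16 with mice 1 to 4 and 7 without mouse 2. With UK14304 (6 without the block) they were 22 without the filter, 186 with the block, 525 with the block on own vehicle alone, 1 on own vehicle without the block, 626 with GC removed, 78 with the ribosomal RNA split, 47 with DESeq2, 264 with DESeq2 and the block, 174 with mice 1 to 4 and 24 without mouse 2. DESeq2 with the block called 1 gene for the difference between agonists. Between mouse numbers, 2110 genes became 3698 with GC removed and 808 without mouse 2.

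With UK14304, 1 member was called with the block, beside 186 of all genes (1.22%), and 1 with the block on own vehicle alone, beside 525. Also 1 was called with DESeq2 and the block, beside 264 of all genes, and with mice 1 to 4, beside 174. With the ribosomal RNA split 0 were called, beside 78 of all genes. With GC removed 3 members were called, beside 626 of all genes, where Btc (-0.23, adjusted p 0.0368) and Hbegf (0.27, 0.0275) joined Areg. Between mouse numbers 1 member was called without mouse 2, beside 808 of all genes. Pathway genes called with UK14304 were 2 with the block, on own vehicle, with DESeq2 and the block or with mice 1 to 4. All-gene calls under these 4 settings were 186, 525, 264 and 174. They were 6 with GC removed, beside 626 of all genes, and 1 with the ribosomal RNA split, beside 78. Between mouse numbers they were 14 with GC removed, beside 3698 of all genes, and 2 without mouse 2, beside 808.

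Some directions turned. With norepinephrine, log2 differences became -0.073 for Btc and 0.0076 for Ier2 with GC removed, 0.0033 for Hbegf without mouse 2, and for Erbb3 0.00065 without the filter, 0.0023 with the block on own vehicle, 0.018 with GC removed and 0.0061 with mice 1 to 4. With UK14304, Nrg4 became -0.0096 with GC removed. For the difference between agonists, Ereg became -0.18 with the ribosomal RNA split and -0.14 without mouse 2, Erbb2 0.057 and 0.019 under the same settings, and Egfr 0.00060 with DESeq2 size factors, 0.00078 with DESeq2, 0.00036 with DESeq2 and the block and 0.029 with mice 1 to 4.

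Leaving out 1 library at a time, with and without the block, genes called ranged from 0 to 2529 with norepinephrine, the highest without the norepinephrine library of mouse 4, from 2 to 1225 with UK14304, from 0 to 1 for the difference and from 1503 to 3581 between mouse numbers. Members called ranged from 0 to 2 with either agonist and from 3 to 6 between mouse numbers, and pathway genes from 0 to 14, 0 to 9 and 5 to 14. The highest counts of members were reached in the blocked fit without the norepinephrine library of mouse 4. That fit called 16.7% of all genes with norepinephrine, 8.08% with UK14304 and 23.6% between mouse numbers. Directions turned within these ranges of log2 difference. With norepinephrine they were -0.042 to 0.23 for Egf, -0.074 to 0.012 for Tgfa, -0.057 to 0.17 for Btc, -0.14 to 0.11 for Hbegf, -0.020 to 0.015 for Erbb3 and -0.023 to 0.12 for Errfi1, and with UK14304 -0.60 to 0.20 for Ereg and -0.22 to 0.027 for Btc. For the difference they were -0.021 to 0.31 for Egf, -0.088 to 0.016 for Tgfa, -0.33 to 0.039 for Areg, -0.23 to 0.58 for Ereg, -0.035 to 0.024 for Egfr, -0.059 to 0.057 for Erbb2 and -0.025 to 0.13 for Errfi1. The blocked fit changed no other member's call.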
